A study of Mus musculus with 8 samples.

Results

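The 6 hepatocellular carcinomas (HCC) of FEAT transgenic mice were divided by the level of a single probe in Mettl13, and the rest of the autosomes was compared between the sets. FEAT and Mettl13 are names of the same methyltransferase gene, and all 6 tumours come from mice with the transgene. The 3 tumours with a log2 ratio of at least 1 at this probe are called high (tumours 1, 2 and 3) and the 3 with a lower value low (tumours 4, 5 and 6), so that the sets were chosen by this measured value. They make up 6 of the 8 arrays. The question was whether DNA copy number elsewhere in the genome differed between them. No chromosome, bin, window, probe or gene outside Mettl13 passed the test, and the second Mettl13 probe was ordered the other way round.

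All samples were genomic DNA from livers of male C57BL/6 mice, hybridised to Agilent arrays with oligonucleotide probes along the genome, against reference DNA from a wild-type normal liver of 6 months. The high tumours came from FEAT transgenic mice of 16, 21 and 20 months, and the low tumours from such mice of 18.5, 22 and 12 months. A normal liver of a FEAT transgenic mouse of 13 months and a wild-type normal liver of 6 months were used only as values beside the comparison, with 1 array each. Tumour 4 is labelled with lung metastasis, and the sources used here give no promoter of the transgene. The titles of all 3 low tumours begin with or contain the number 18, while those of the high tumours carry 1, 16 and 16. The labels do not say what these numbers stand for, so that the probe level and the title number cannot be told apart.

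Array comparative genomic hybridisation reads the ratio of test to reference DNA at each probe, so that a gain of a chromosome arm lifts all of its probes and a focal deletion lowers a few. Mettl13, now also named Eef1aknmt, encodes an enzyme that methylates the translation elongation factor eEF1A. A transgene is extra DNA inserted at a site of its own, and a genomic probe reads it only where the construct holds the sequence of that probe. Liver tumours of mice often carry gains and losses of whole chromosomes.

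Each value is a log2 ratio, test over reference, after the autosomal median of its array was subtracted. There were 232626 probes, 220065 of them autosomal, at a median spacing of 7.85 kb. Probe noise was 0.26, 0.23 and 0.32 in the high tumours and 0.49, 0.22 and 0.36 in the low tumours, and its part in the results was not tested. The autosomal medians before centring were -0.06, -0.02 and -0.04 in the high and 0.00, 0.10 and 0.01 in the low tumours, so that the sets did not overlap in this value either. The 15 pairs of tumours correlated at r from 0.41 to 0.71 over autosomal probes, as a description across probes that share the array design. The number of arrays limits the precision, and with 3 tumours a side the smallest two-sided p of an exact permutation test is 0.1.

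Both Mettl13 probes are shown because the division rests on the first and the second does not follow it. They lie 6.67 kb apart from end to end and are named 5630401D24Rik on the array, an older name of Mettl13. The probe of the division is at chr1:162500192-162500247 and the second at chr1:162506803-162506861, in the coordinates of the array annotation (genome build not given in the sources). Whether they fall in an exon or an intron was not analysed here. Their sequences, 5′ to 3′ as on the array, are:
Mettl13 probe of the division: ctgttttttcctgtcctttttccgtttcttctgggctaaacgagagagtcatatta
Mettl13 second probe: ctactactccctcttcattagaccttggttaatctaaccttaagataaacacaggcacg

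The first has 56 bases with a GC content of 39.3% and the second 59 bases with 40.7%. The longest run of bases that either shares with another probe of the array is 16 for the first and 15 for the second.

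At the probe of the division, the log2 ratio was 1.37, 1.56 and 3.73 in tumours 1, 2 and 3 and 0.26, 0.59 and 0.44 in tumours 4, 5 and 6. Tumour 1 was the nearest above the limit and tumour 5 the nearest below it, and tumour 3 stood far above the other two high tumours. The normal liver of the FEAT transgenic mouse, which had no part in the division, read 2.04, and the wild-type liver -0.15. The non-tumour transgenic liver was therefore within the range of the high tumours. These values chose the sets and have no test.

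The second probe read 0.37, 0.43 and 0.57 in the high tumours and 1.07, 1.03 and 0.75 in the low tumours. Every low tumour was above every high tumour here, against the order of the first probe. On the FEAT normal liver the value was 0.53 and on the wild-type liver 0.15. The names high and low therefore describe 1 probe and not the whole gene. Chromosome 1 as a whole was high in tumours 4 and 5 and not in tumour 6, and its part in this order was not tested. Relative to the median of the 20 flanking probes, the second probe stood at 0.24, 0.42 and 0.36 in the high and 0.70, 0.63 and 0.71 in the low tumours. The sets did not overlap on this scale either. The means of the second probe in the high and low tumours were 0.46 and 0.95 before this subtraction and 0.34 and 0.68 after it. The first probe on the same scale was at 1.24, 1.55 and 3.52 against -0.11, 0.20 and 0.41, so that tumour 4 was below its own neighbourhood at this probe. As the rule used Mettl13, neither order was tested.

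**Figure D1:**
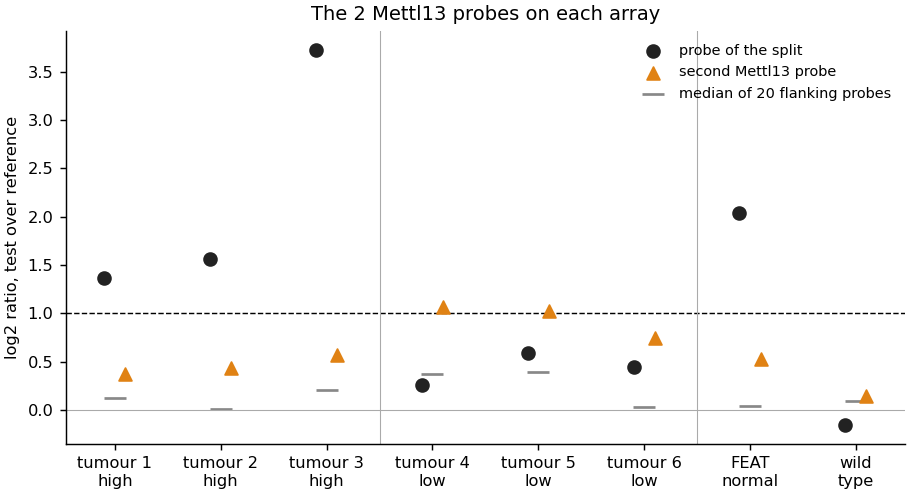
Log2 ratio, test over reference, of both Mettl13 probes (y axis) on the 8 arrays (x axis), with the median of the 20 flanking probes as a grey bar and the limit of 1 as a dashed line. The first probe (black) reads 1.37 to 3.73 in the high tumours and 0.26 to 0.59 in the low ones, while the second (orange) reads 0.37 to 0.57 and 0.75 to 1.07.

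The 10 named genes on either side of Mettl13 did not share the order of the first probe. Their medians were -0.01, 0.06 and 0.06 in tumours 1, 2 and 3 and 0.26, 0.28 and -0.00 in tumours 4, 5 and 6. Tumours 4 and 5 were high across the neighbourhood, and tumour 6 was not. AK046657 had a value in only 2 of the 6 tumours and was not tested. The 19 tested differences of high minus low ran from -0.30 to -0.01 with a median of -0.15, and 0 of them had an unadjusted limma p under 0.05. Over all genes tested, 6.59% had such a p. Dnm3, a dynamin gene with 71 probes just before Mettl13, read 0.03, 0.05 and 0.05 in the high and 0.14, 0.32 and -0.02 in the low tumours. Vamp4, a vesicle fusion gene just after it, read 0.12, 0.40 and 0.61 against 0.66, 0.38 and 0.38. Both genes overlapped between the sets. The low tumours were all above the high tumours at 1 neighbour, AK016179, and the reverse order was found at 0. Over all genes tested, 3.99% had the low tumours above and 9.22% the high tumours.

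The first test asked whether whole chromosomes differed. None of 19 autosomes passed limma's test at an adjusted p of 0.05 (0% higher and 0% lower in the high tumours), and 0 had an unadjusted p under 0.05. Chromosome 9 had the smallest p. It read 0.03, 0.02 and 0.05 in the high tumours and -0.09, -0.29 and -0.01 in the low tumours. Tumour 5 was far below the others, and tumours 2 and 6 lay close together. In the non-tumour livers the largest shift of an autosome was 0.03. The difference was 0.16 (SE 0.07, adjusted p = 0.495 by limma, exact two-sided permutation p = 0.1, n = 3 and 3). Without tumour 5 it was 0.08, with an adjusted p of 0.339 by limma.

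Chromosomes 6, 7, 10 and 13 showed the same order as chromosome 9, so that the high tumours were all above the low tumours on 5 of 19 autosomes (26.3%) and the low tumours all above the high on 0. Chromosome 6 read 0.05, 0.03 and 0.05 in the high and -0.00, -0.08 and -0.01 in the low tumours, a difference of 0.07 (SE 0.04). On chromosome 7 the values were 0.03, 0.01 and 0.04 against 0.00, -0.26 and -0.01, a difference of 0.12 (SE 0.07). On chromosome 7 the difference was 0.03 without tumour 5. Chromosomes 10 and 13 differed by 0.08 (SE 0.05 and 0.04), and by 0.04 and 0.05 without tumour 5. All 5 had an adjusted p of 0.495 by limma. This order depended on how the arrays were centred. With values as deposited, 0 autosomes had all high tumours above the low ones and 4 (21.1%; chromosomes 1, 2, 16 and 17) had the reverse. With centring on the mode of each array, chromosome 9 alone had the high tumours above (5.26%).

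Chromosome 1, which holds the native Mettl13 gene, was ordered the other way in 2 of the 3 low tumours. It read 0.06, 0.04 and 0.05 in tumours 1, 2 and 3 and 0.18, 0.32 and 0.02 in tumours 4, 5 and 6. Tumour 6 was below all high tumours, so the sets overlapped. The difference was -0.13 (SE 0.07, adjusted p = 0.495 by limma, exact permutation p = 0.4), and without tumour 5 it was -0.05. Without tumour 6 it was -0.20, with an adjusted p of 0.131 by limma, the lowest of any fit here.

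The number of shifted autosomes varied as much within the sets as between them. Shifts of 0.1 or more in either direction were found on 4, 0 and 0 autosomes of the high tumours and on 4, 12 and 0 of the low tumours. Tumours 2, 3 and 6 had none, and these include both sides of the division. Chromosome 15, which holds Myc, read 0.31 in tumour 1 and 0.26 in tumour 5, a high and a low tumour, and no more than 0.08 in the rest. Its difference was 0.02 (SE 0.10). Y chromosome values of -0.69, 0.13 and 0.13 in the high tumours stood against -0.29, -0.33 and -0.05 in the low tumours, which also overlapped. X read 0.14, 0.11 and 0.11 against 0.20, 0.28 and 0.05.

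**Figure D2:**
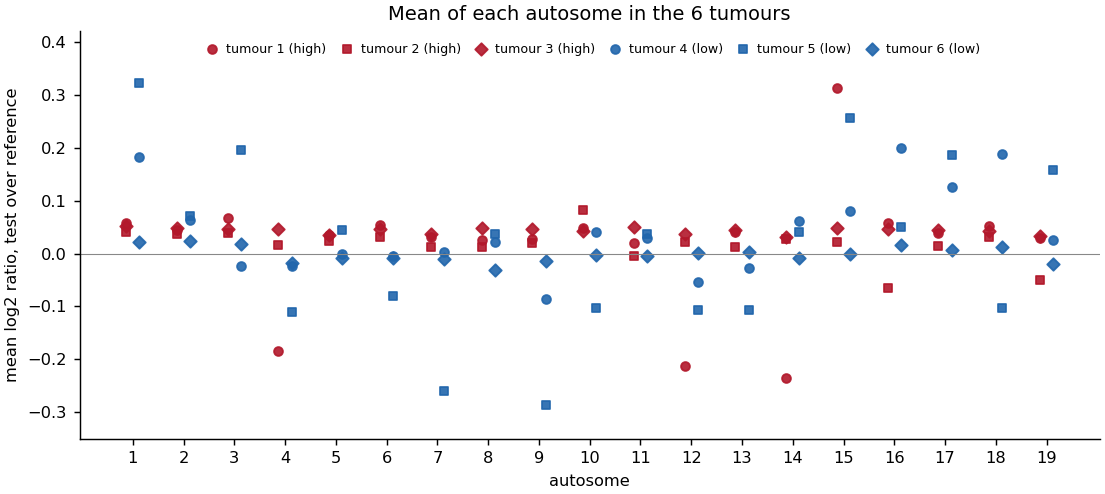
Mean log2 ratio, test over reference (y axis), of each autosome (x axis) in the 3 high tumours (red) and the 3 low tumours (blue), 1 symbol per tumour. Tumour 5 (blue squares) and tumour 1 (red circles) hold the largest shifts, and the sets do not overlap on 5 of 19 autosomes.

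Summed over the autosomes, the altered part of the genome was not distinguishable between the sets. Segments at or beyond a log2 ratio of 0.2 in either direction covered 14.3%, 0.0331% and 0.0233% of autosomal probes in tumours 1, 2 and 3 and 5.58%, 25.1% and 0.0298% in tumours 4, 5 and 6. Each set held at least 1 tumour with almost no called segment and at least 1 with many. The share of tumour 4 depended on the settings. It was 0.0362% with GC correction, 0.0142% with a penalty factor of 4 and 0.0334% with a calling limit of 0.3, but 22.5% with centring on the mode and 26.5% with a calling limit of 0.1. The FEAT normal liver had 0.0332% and the wild-type liver 0.0179%. The mean share was 4.79% ± 8.25 in the high and 10.2% ± 13.1 in the low tumours (SD, n = 3 each). The difference of -5.43 percentage points was smaller than the spread within either set (exact two-sided permutation p = 0.6). Without tumour 5 its sign turned, to 1.99 points. Gained segments differed by -4.79 points (exact permutation p = 0.3) and lost segments by -0.65 points (exact permutation p = 0.6).

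Shared calls were counted in the bins, as a description. Of 2374 bins of 1 Mb, 107 were gained in at least 2 low tumours and in no high tumour, and 106 of these lie among the 192 bins of chromosome 1. They come from tumours 4 and 5, as tumour 6 had no called segment of 3 Mb or more. On chromosome 1, none of these shared calls was left (0 bins) with GC correction, with a penalty factor of 4 or with a calling limit of 0.3, while centring on the mode gave 191 bins and a limit of 0.1 gave 177. The reverse, a gain in at least 2 high tumours and in no low tumour, was found in 0 bins. Losses in at least 2 low tumours and in no high tumour covered 6 bins of chromosome 9 and 0 of them under those 3 settings, and losses in at least 2 high tumours and in no low tumour covered 0. Gains on both sides covered 90 bins, 89 of them among the 101 bins of chromosome 15. The autosomal segments numbered 22, 5 and 3 in the high and 10, 19 and 3 in the low tumours.

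The next test was run on the means of the 1 Mb bins with at least 20 probes. None of 2374 bins passed in either direction (0% and 0%), and 108 had an unadjusted limma p under 0.05 (4.55%), 88 higher (3.71%) and 20 lower (0.842%) in the high tumours. The count of 108 was 69, 36 and 18 without tumours 1, 2 and 3 and 397 without tumour 6. It was 355 with age as a covariate and 71 with the running median subtracted. Bins with all high tumours above all low tumours numbered 317 (13.4%), and those with the reverse order 33 (1.39%). With values as deposited these counts were 38 (1.6%) and 421 (17.7%), and with centring on the mode 167 (7.03%) and 0. The direction of the imbalance thus changed with the centring.

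Within the main centring, the ordered bins were concentrated on few chromosomes. On chromosome 9, 90 of 121 bins (74.4%) had all high tumours above all low tumours, and 57 of the 121 had an unadjusted p under 0.05. Chromosome 6 followed with 78 of 147 bins (53.1%), chromosome 13 with 55 of 114 (48.2%), chromosome 7 with 49 of 135 (36.3%) and chromosome 10 with 39 of 127 (30.7%). Chromosome 1 had 10 of 192 bins (5.21%) in the reverse order, and 18 with an unadjusted p under 0.05. Without tumour 6 this count was 165, and without tumour 4 or tumour 5 it was 1. Neighbouring bins of a chromosome share its level in each tumour and are not independent.

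**Figure D3:**
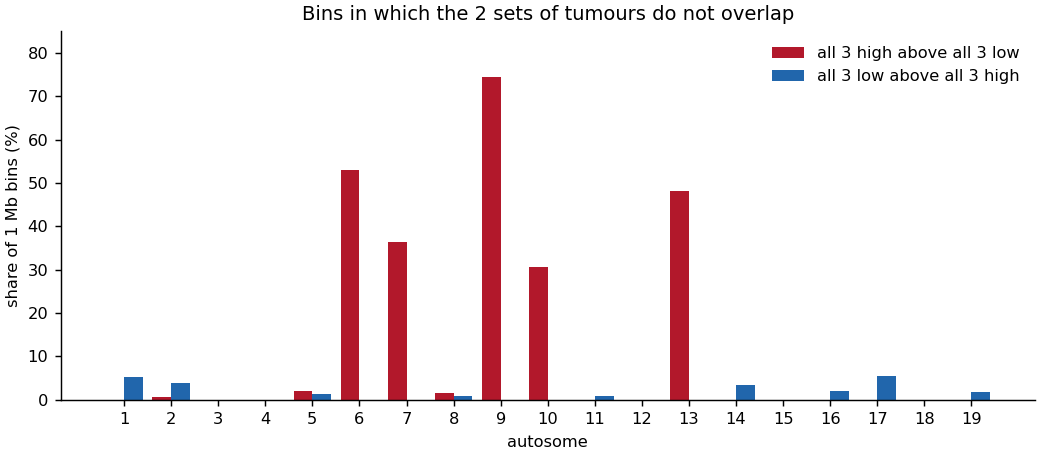
Share of the 1 Mb bins of each autosome (y axis, %) in which all 3 high tumours are above all 3 low tumours (red) or the reverse (blue), after centring on the autosomal median. Chromosome 9 reaches 74.4%, and chromosomes 6, 13, 7 and 10 lie between 30.7% and 53.1%.

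Among the bins without overlap, the 5 with the smallest p and a higher mean in the high tumours all lie on chromosome 9. The first, chr9:43000001-44000000, holds Pvrl1, a nectin gene, and Pou2f3, a POU transcription factor gene. It read 0.03, -0.01 and 0.01 in the high and -0.18, -0.32 and -0.11 in the low tumours, a difference of 0.21 (SE 0.06, adjusted p = 0.703 by limma). The other four, around Pknox2, Sorl1, Bckdhb and AK016767, differed by 0.20 to 0.23 with the same adjusted p. In all 5, tumour 5 was lowest and tumour 6 was the nearest of the low tumours to the high ones. With the running median subtracted, which removes the level of the wider neighbourhood, the 5 differences lay between -0.00 and 0.05.

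Of the 5 bins in the other direction, also picked among those without overlap, 4 lie on chromosome 1 and 1 on chromosome 16. The bin of chromosome 16, chr16:65000001-66000000, holds Htr1f, a serotonin receptor gene, Chmp2b, a gene of the membrane scission machinery, and Pit1, a pituitary transcription factor gene. It read -0.06, -0.10 and -0.05 in the high and 0.21, 0.09 and 0.03 in the low tumours, a difference of -0.18 (SE 0.06, adjusted p = 0.703 by limma). The bins of chromosome 1 lie between chr1:139000001-140000000, with Crb1 and Aspm, and chr1:148000001-149000000. With the running median subtracted, the bin of chromosome 16 differed by -0.06 and those of chromosome 1 by -0.05 to -0.00.

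Changes too small for a bin were looked for in windows of 5 consecutive probes. None of 42980 windows passed in either direction (0% and 0%). An unadjusted limma p under 0.05 was found in 2834 windows (6.59%), 1782 higher (4.15%) and 1052 lower (2.45%) in the high tumours. Without tumour 2 this was 1535 windows and without tumour 5 it was 4434. The sets did not overlap in 3846 windows with the high tumours above (8.95%) and 1807 with the low tumours above (4.2%). With values as deposited these counts were 1244 (2.89%) and 5241 (12.2%). The 1st and 99th percentiles of the window differences were -0.28 and 0.27.

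The 5 windows in each direction with the smallest p and no overlap are described next, as windows that did not pass (adjusted p = 0.754 by limma for each). Of the windows that were higher in the high tumours, 4 lie on chromosome 9. At Cep70, a centrosome gene, the window at chr9:98887884-98925231 read -0.03, -0.10 and -0.01 in the high and -0.48, -0.50 and -0.43 in the low tumours, a difference of 0.42 (SE 0.09). All 3 low tumours were close together there, tumour 6 included, unlike in the mean of the chromosome. At Cdc37, which encodes a kinase cochaperone of Hsp90, the values were 0.15, 0.10 and 0.08 against -0.35, -0.34 and -0.25. Itga11, an integrin subunit gene, read 0.03, -0.07 and 0.06 against -0.48, -0.39 and -0.31. BC038479 read 0.07, 0.01 and -0.04 against -0.34, -0.36 and -0.39. With the running median subtracted, the differences at Cep70, Cdc37, Itga11 and BC038479 were 0.26, 0.26, 0.24 and 0.23.

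The fifth lies on chromosome 7 and covers Slc22a18, Phlda2 and Nap1l4, genes of an imprinted cluster. It read -0.23, -0.05 and -0.13 in the high and -0.66, -0.59 and -0.46 in the low tumours, a difference of 0.43 (SE 0.10). There, the values were -0.79 in the FEAT normal and -0.04 in the wild-type liver. The transgenic liver without a tumour was thus beyond the low tumours, although its first Mettl13 probe was in the range of the high ones.

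In the other direction, the window at Sept2, a septin gene, and Farp2 at chr1:93392369-93436420 had the smallest p. It read 0.07, -0.14 and -0.09 in the high and 0.52, 0.43 and 0.36 in the low tumours, a difference of -0.49 (SE 0.09). Clu, which encodes the secreted chaperone clusterin, was the only window of the 5 off chromosome 1. It read -0.48, -0.33 and -0.05 in the high and 0.32, 0.11 and 0.32 in the low tumours, a difference of -0.54 (SE 0.11). Its chromosome 14 stood at -0.24 in tumour 1, and at 0.03 in tumours 2 and 3. Aspm, a spindle gene, read 0.05, 0.04 and 0.03 against 0.63, 0.31 and 0.47. Rabgap1l, a GTPase activator gene, read 0.33, 0.12 and 0.11 against 0.80, 0.56 and 0.53. The window at 3110035E14Rik read -0.01, -0.11 and -0.04 against 0.48, 0.47 and 0.23. With the running median subtracted, the differences at Sept2, Aspm, Rabgap1l and 3110035E14Rik were -0.34, -0.29, -0.32 and -0.30. As windows with overlap were left out, tumour 6 is above the high tumours in all 5 windows by the choice itself. The mean of its chromosome 1 was 0.02.

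The non-tumour livers were then placed beside the windows with an unadjusted p under 0.05, since neither had a part in the division. The wild-type liver was nearer to the mean of the high tumours in 2450 of 2834 windows (86.5%), and over all windows in 64.3%. Its array sets wild-type against wild-type DNA, and its largest autosomal shift was 0.03. Which set it lies nearer to therefore cannot be told apart from which set has values nearer to a ratio without change. The FEAT normal liver was nearer to the high tumours in 1438 of 2834 (50.7%), and over all windows in 50.5%. So the transgenic liver, whose first Mettl13 probe was high, did not side with the high tumours at these windows. These are counts over windows of 1 array each, with no test.

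**Figure D4:**
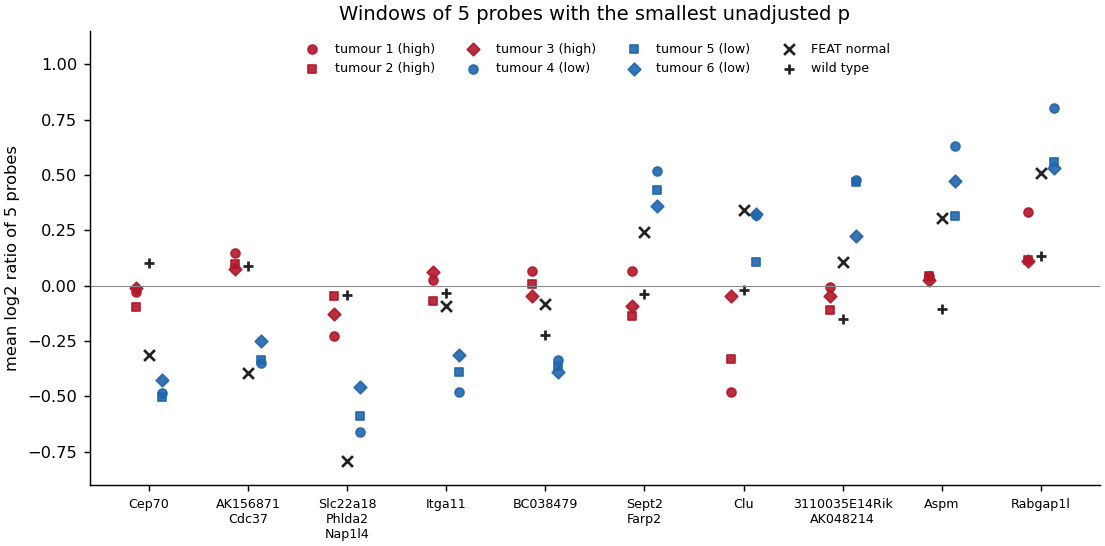
Mean log2 ratio of 5 probes (y axis) in the 10 named windows (x axis, by gene), for the 3 high tumours (red), the 3 low tumours (blue), the FEAT normal liver (cross) and the wild-type liver (plus). The windows from Cep70 to BC038479 have the high tumours above, those from Sept2 to Rabgap1l the low tumours above, and the FEAT normal liver is beyond the low tumours at Cdc37, Slc22a18 and Clu.

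Single probes were the finest level. None of 214940 probes passed in either direction (0% and 0%), 12641 had an unadjusted limma p under 0.05 (5.88%; 3.09% higher and 2.79% lower in the high tumours), and the sets did not overlap in 7.76% with the high and 4.64% with the low tumours above. The count of 12641 was 8217 without tumour 1, 7302 without tumour 2 and 32379 without tumour 5. Among the probes with a gene name and no overlap, 3 with the smallest p and lower values in the high tumours are described. They were picked after their values were seen and have an adjusted p of 0.815 each by limma. Their sequences are shown since each stood apart from the probes around it:
Lztr1 probe: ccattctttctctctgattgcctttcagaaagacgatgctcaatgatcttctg
BC043643 probe: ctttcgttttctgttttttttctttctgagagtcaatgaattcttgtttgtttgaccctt
Serpinc1 probe: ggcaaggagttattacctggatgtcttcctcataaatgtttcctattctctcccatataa

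The probe of Lztr1, an adaptor gene that restrains RAS, lies at chr16:17061771-17061823 and read -0.02, 0.01 and 0.06 in the high and 0.88, 1.02 and 0.98 in the low tumours. The difference of -0.94 (SE 0.13) compared with -0.24 for the mean of the 4 Lztr1 probes. The FEAT normal liver had no value at this probe, and the wild-type liver read 0.11. BC043643, at chr17:43896918-43896977, read -0.93, -0.82 and -1.13 against 0.16, 0.01 and 0.02. There the wild-type liver read -0.51 and the FEAT normal liver -0.11. Serpinc1, the gene of antithrombin, had a probe at chr1:160952407-160952466 that read 0.01, 0.17 and -0.29 against 1.17, 0.93 and 1.51. At it the wild-type liver read -0.00 and the FEAT normal liver 0.30. At each of these 3 probes the sets were widely apart while the flanking probes lay between -0.10 and 0.26 in the means of either set.

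Focal segments under 3 Mb were called at 16 places of the autosomes in the 6 tumours. Calls were made only in high tumours at 6, only in low tumours at 5 and in both at 5, and 0 were called in all tumours of 1 side and none of the other. A tumour without a call can hold a similar value. AK033168, called only in a high tumour, read 0.07, 0.69 and -0.01 in the high and 0.11, 0.33 and 0.69 in the low tumours. Smyd3, also called only in a high tumour, read -0.01, 0.03 and -0.85 against 0.10, 0.21 and -0.07. The deepest of these autosomal places, at Loxl2, Entpd4 and Slc25a37, read -1.24, -0.98 and -0.96 in the high and -0.94, -0.93 and -0.99 in the low tumours. The FEAT normal liver read -0.92 and the wild-type liver -0.03 there. The gain at Grm4, a glutamate receptor gene, read 0.95, 0.56 and 0.91 against 1.05, 0.70 and 0.62, and the FEAT normal and wild-type livers read 0.59 and -0.04. The sets overlapped at both. At 1 place, A630047E20Rik on chromosome 3, the high tumours were all above the low ones, with -0.52, 0.31 and 0.25 against -0.70, -0.57 and -0.57. Tumour 1 was nearer to the low tumours than to tumours 2 and 3.

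For the genes, the mean of the probes of each was tested. None of 24600 genes passed in either direction (0% and 0%). An unadjusted limma p under 0.05 was found in 1075 that were higher (4.37%) and 545 that were lower (2.22%) in the high tumours, and the sets did not overlap in 9.22% and 3.99%. The total of 1620 was 990 without tumour 2 and 2872 without tumour 5. The median difference over all genes was 0.02, and with values as deposited -0.05. The 6 lists were read against this background, and 140 of their 162 genes were measured on autosomes.

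Among elongation factor genes and lysine methyltransferase genes related to Mettl13, 0 of 10 measured passed, and 4 had an unadjusted p under 0.05, 2 in each direction. The median difference was 0.01. Eef1a1, whose product is the substrate of Mettl13, read 0.28, 0.22 and 0.40 in the high and 0.01, -0.13 and 0.14 in the low tumours at its single probe, a difference of 0.29 (SE 0.10, adjusted p = 0.738 by limma), and 0.14 with the running median subtracted. Eef2, the factor that moves the ribosome along, read -0.13, -0.04 and -0.00 against 0.37, 0.34 and 0.28 at a single probe, a difference of -0.39 (SE 0.09, adjusted p = 0.717). Vcpkmt, which methylates the chaperone VCP, differed by -0.53 (SE 0.14) and Etfbkmt, which methylates an electron transfer protein, by 0.28 (SE 0.08), also at 1 probe each. The 4 genes with the smallest p of this list were thus all read by single probes. With the running median subtracted, Eef2 differed by -0.46, Vcpkmt by -0.51 and Etfbkmt by 0.20. Eef1a1 has processed copies elsewhere in the mouse genome, and its value is uncertain for that reason.

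Of 27 measured HCC oncogenes, 0 passed, 4 were higher and 1 was lower in the high tumours at an unadjusted p under 0.05, with a median difference of 0.02. Ctnnb1, the gene of beta-catenin on chromosome 9, read 0.05, 0.17 and 0.42 in the high and 0.02, -0.28 and -0.14 in the low tumours, a difference of 0.34 (SE 0.13, adjusted p = 0.738 by limma). Igf2, a fetal growth factor gene, read -0.10, -0.08 and -0.11 against -0.40, -0.23 and -0.45, and the FEAT normal liver read -0.80. E2f1 differed by 0.24 and Yap1, the transcriptional effector of the Hippo pathway, by 0.19. Nras, a RAS gene with 1 probe, read 0.15, 0.19 and 0.23 against 0.69, 0.25 and 0.50, a difference of -0.29 (SE 0.12). With the running median of the neighbourhood subtracted, Ctnnb1 differed by 0.15, Igf2 by 0.14 and Yap1 by 0.02. On the same scale E2f1 differed by 0.24 and Nras by -0.27. Without tumour 4 Nras differed by -0.19. Myc, on chromosome 15, differed by 0.10 at a single probe and overlapped between the sets. This probe read -0.09 in tumour 1 and 0.22 in tumour 5, the tumours with a raised chromosome 15.

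Among 25 measured HCC tumour suppressors, 0 passed and 1 had an unadjusted p under 0.05, with a median difference of -0.00. This was Keap1, which targets the stress factor Nrf2 for degradation and lies on chromosome 9. It read -0.29, -0.20 and -0.30 in the high and -0.70, -0.69 and -0.51 in the low tumours over 3 probes, a difference of 0.37 (SE 0.09, adjusted p = 0.717 by limma). The FEAT normal liver was between the sets at -0.42 and the wild-type liver above them at -0.13. With the running median subtracted, Keap1 differed by 0.20. Keap1 was in a lost segment in tumours 4 and 5, and the lost share of tumour 4 fell from 0.585% to 0.0142% with GC correction. Acvr2a, an activin receptor gene, differed by -0.18, Socs1, an inhibitor of cytokine signalling, by -0.16 and Kmt2d, a histone methyltransferase gene, by 0.16, and all 3 overlapped. Acvr2a differed by -0.05 without tumour 1, and Socs1 by -0.07 and Kmt2d by 0.04 without tumour 4.

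FEAT has been studied as a protein that opposes apoptosis, and the apoptosis genes were read for that reason. Of 33 measured, 0 passed and 1 had an unadjusted p under 0.05, with a median difference of -0.01. This gene, Birc3, an inhibitor of apoptosis on chromosome 9, read -0.13, -0.15 and -0.25 in the high and -0.57, -0.51 and -0.24 in the low tumours, a difference of 0.26 (SE 0.11, adjusted p = 0.756 by limma), with overlap through tumours 3 and 6. With the running median subtracted the difference was 0.10. Bok, a Bcl2 family gene on chromosome 1, had the largest difference at -0.30 (SE 0.25), and tumour 4 at 0.93 lay far above the other five. Without tumour 4 it was -0.03. Bbc3, the gene of the death inducer Puma, differed by 0.24 (SE 0.12), and Fasl, the ligand of the death receptor Fas and a neighbour of Mettl13, by -0.23 (SE 0.16). Bbc3 differed by 0.15 without tumour 4 and Fasl by -0.08 without tumour 1. Casp8, an initiator caspase gene on chromosome 1, was the only member without overlap, at -0.04, 0.05 and 0.04 against 0.18, 0.30 and 0.14.

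In the genome stability list, 0 of 27 measured passed and 0 had an unadjusted p under 0.05, with a median difference of 0.03. Chek1, a checkpoint kinase gene on chromosome 9, differed by 0.22 (SE 0.11), and the mitotic genes Bub3 and Plk1 on chromosome 7 by 0.21 and 0.20 (SE 0.10 each). Chek1 differed by 0.04 with the running median subtracted and by 0.14 without tumour 5, and Plk1 by 0.14 without tumour 4. Plk4, the kinase of centriole duplication, differed by -0.19 (SE 0.17) through tumour 1 at -0.48, and by 0.02 without it. Among 19 measured hepatocyte genes, 0 passed and 0 had an unadjusted p under 0.05, with a median difference of 0.05. The largest differences were -0.24 at Tat, a tyrosine-degrading enzyme gene, 0.16 at the apolipoprotein gene Apoc3, 0.14 at Hnf4a and 0.14 at the bile acid receptor gene Nr1h4, each with overlap. Tat differed by -0.04 without tumour 2 and by -0.08 without tumour 4, Apoc3 by 0.08 without tumour 3 and by 0.09 without tumour 5, and Hnf4a by 0.09 without tumour 4.

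Called segments held 14.7% of all genes tested in at least 1 high tumour and 26.4% in at least 1 low tumour. The shares were 14.8% and 44.4% for the 27 oncogenes, 24% and 16% for the 25 tumour suppressors, 12.1% and 33.3% for the 33 apoptosis genes and 7.41% and 40.7% for the 27 genome stability genes. They were 30% and 30% for the 10 genes of the elongation factor list and 0% and 26.3% for the 19 hepatocyte genes. Tumours 1 and 5 hold most of the called share on their sides (14.3% and 25.1% of autosomal probes), and its part in these shares was not tested.

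**Figure D5:**
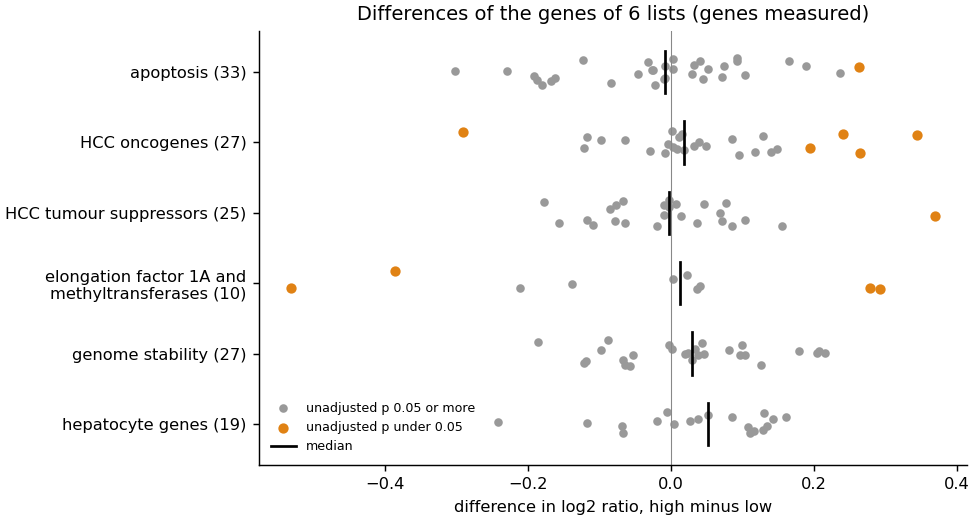
Difference in log2 ratio of high minus low tumours (x axis) for each measured gene of the 6 lists (rows, with the number measured), with the list medians as black bars and genes at an unadjusted limma p under 0.05 in orange. List medians lie between -0.01 and 0.05, beside 0.02 over all genes, and no gene passed after adjustment.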

How the data were processed

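DNA copy number was measured on 8 two-colour arrays, with test DNA in Cy3 and the reference in Cy5. The deposited value table holds log2 ratios, analysed with CGH analytics 3.4 per the series description. On the wild-type array they equalled the deposited log10 ratio of the scanner (Agilent Feature Extraction 9.1.3.1, protocol CGH-v4_91, per the file headers) with the sign turned, in base 2, plus 0.0014 (r = -1), so that higher means more test DNA. For the other arrays the direction was taken from the labelled dyes. The scanner's flags for spots well above background were used in 1 alternative. One number was repeated in 6809 rows of the FEAT normal liver and in 305 rows of tumour 3. These rows were set to missing, as the rows with a scanner ratio of 0 are on the wild-type array (315 of 315).

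Spots of a probe were averaged and arrays centred on the autosomal median, without loess. Both Mettl13 probes were left out of all tests. limma 3.58.1 in R 4.3.3 (lmFit, eBayes) compared 3 high with 3 low tumours, with Benjamini-Hochberg adjustment at 0.05 over all features of a level. Segments came from penalised least squares with a penalty factor of 2 (times log probe number and noise variance), at least 5 probes, a limit of 0.2 and values drawn in to 3 noise SDs of a 5-probe running median. Exact permutation tests ran over the 20 splits of 6 tumours. limma and the segmentation were also tried on simulated data with independent noise, which does not cover levels shared by neighbouring features. Python 3.11.15 with numpy 2.4.6 and pandas 2.3.3 was used.

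The named genes were Mettl13 with 10 genes on either side and up to 4 genes of each list by size of the difference. To these came the 5 windows and the 5 bins of each direction with the smallest p among those without overlap. Any other gene named illustrates a count and was picked with its values known. The members, the lists and the rule were chosen with earlier results of these data known. A RefSeq gene table served to match older names. Alternatives covered centring, GC content (window of 500 kb), age, non-tumour livers, dim probes, eBayes options, sex chromosomes, feature sizes, segment settings and each tumour left out. Results that rest on some withheld items are not reported here.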

Additional observations from a re-analysis of the deposited data

Results flagged for a closer look

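Among 79 sets of 6 tumour values examined, 7 held a tumour whose gap to the nearest other was past Dixon's critical share of the range. The 79 include chromosomes together with bins, windows and focal places that lie on them. The focal places entered through a call in these tumours, and the bins and windows were picked for no overlap. The count of 7 therefore has no chance level to stand beside. Chromosome 7 of tumour 5 stood at -0.26, against a median of 0.01 in the other five. Chromosome 14 of tumour 1 stood at -0.24, against 0.03. Smyd3, the gene of a methyltransferase, read -0.85 in tumour 3 and 0.03 in the median of the others. The Col11a1 segment read 0.31 in tumour 5, against 0.13, and the segment with Zfp75 on chromosome 9 read -0.16 there, against 0.16. In tumour 5 the mean of chromosome 3, which holds Col11a1, was 0.20, and that of chromosome 9 was -0.29. BC040066 read -0.70 in tumour 1, against -0.21, and -0.63 in the FEAT normal liver. The segment at Loxl2 and Entpd4, on chromosome 14, read -1.24 in tumour 1, against -0.96. These segments include the level of their chromosome, and its part in the flags was not tested. The 7 flagged values lie in 3 of the 6 tumours, on both sides of the division.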

How the results depend on the processing

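No feature passed in any of the 84 alternative fits of the 5 levels, whose lowest adjusted p was 0.131 (chromosome 1 without tumour 6, limma). Of 794 values of single features under alternatives, 789 kept their direction, but many of these could not turn. The difference of a feature was unchanged by other eBayes options, by added sex chromosomes or by the non-tumour livers as a separate group. Keap1, for example, differed by 0.37 under each. The bins and windows chosen for no overlap also keep their direction whichever tumour is left out. The count of 789 is therefore no measure of stability. The 5 that turned were chromosomes 6 and 13 with values as deposited (-0.0024 and -0.00079), the Sorl1 bin of chromosome 9 and Apoc3 with the running median subtracted (-0.0026 and -0.012), and Plk4, whose difference ran from -0.30 to 0.022 with each tumour left out and was positive without tumour 1. The difference in altered share ran from -10.5 to 1.99 percentage points with each tumour left out, positive only without tumour 5, and stayed negative under all other settings run. With the running median subtracted, the FEAT normal liver was nearer to the high tumours in 29.6% and the wild-type liver in 77.2% of the windows with an unadjusted p under 0.05. Over all windows these shares were 42.3% and 63.3% under this setting. With values as deposited, 1.79% of the bins with such a p were higher in the high tumours, against 81.5% with the main centring and 98.5% with centring on the mode. The cause was not tested. Keeping the repeated values, the running median for bins, the GC correction of the share and all settings of the shared calls were chosen after seeing the data. The same holds for the alternatives on the side of the non-tumour livers and on the Mettl13 probe levels. No paired analysis was possible because the replicate numbers follow the order of the samples and pair nothing. With 3 tumours a side, small differences cannot be detected.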
